A study of Mus musculus with 4 samples.

Results

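A set of 10 genes of the blood vessel wall was followed through pancreatic tumors of obese mice by single-cell RNA-seq. These were, of 32285 genes listed for every library, Emcn, Cdh5, Pecam1, Cldn5, Plvap, Gpihbp1, Sele, Selp, Icam1 and Vcam1, and they were taken by gene symbol. All 10 were found in every library. Tumors were grown from KPC cells, a mouse pancreatic ductal adenocarcinoma line, implanted in the pancreas of male mice kept on a high-fat diet. In the genetic model, Pdgfrb-TK mice carry a viral thymidine kinase under the Pdgfrb promoter, so that ganciclovir (GCV) kills proliferating cells that use this promoter, pericytes as well as fibroblasts. Pdgfrb-TK/GCV tumors were compared with Pdgfrb-TK/PBS tumors. In the pharmacological model, C57BL/6 mice received D-CAN, a peptide that homes to adipose stromal cells and carries an apoptosis-inducing sequence, and were compared with C57BL/6 mice given PBS (WT/PBS). The labels give C57BL/6 as the genotype of all 4 samples, and below this name is used only for mice without the kinase. The labels give an age of 7 months for all groups, while the study's methods give an older age at implantation. Each of the 4 conditions is 1 library made from pooled tumors, so that differences lack a replicate check and were not tested. The intervals below are 95% intervals for counting error only.

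After cells with fewer than 200 detected genes were left out, the libraries held 10178 to 12280 cells and 84000174 to 155382616 unique molecular identifiers (UMIs, each a counted RNA molecule). The share of cells with over 20% of UMIs on mitochondrial genes was 4.48% to 8.42% in the Pdgfrb-TK libraries and 18.2% to 29.3% in the C57BL/6 libraries. Pairs of libraries shared 26 to 42 cell barcodes, at most 0.389% of the smaller library. The WT/PBS library stood apart from the others in several cell classes. Its summed level of 6 heat shock genes, chosen after the values were seen, was 10892 CPM (UMIs of a gene scaled to a total of 1e+06 UMIs in the class) in cancer-associated fibroblasts (CAFs), against 1425 to 2301 CPM in the other 3 libraries, and 9368 CPM in endothelial cells (ECs), against 1475 to 5024 CPM. In neutrophils and in T and NK cells D-CAN was the higher, at 12823 against 7251 CPM and 6372 against 4675 CPM.

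The endothelium lines blood vessels and decides what leaves the blood. VE-cadherin, PECAM-1 and claudin 5 hold neighboring ECs together, endomucin coats their surface, PLVAP spans the diaphragms of fenestrae and caveolae, and GPIHBP1 carries lipoprotein lipase into the capillary. When inflamed, venular ECs put out the selectins and the immunoglobulin-type adhesion molecules ICAM-1 and VCAM-1, on which leukocytes roll and then hold fast, and transcription of these is a textbook response to NF-kB.

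The promoters of 3 adhesion genes are shown because these genes differed most between libraries. The table of RefSeq promoters used here matched 5 of the 10 genes (Sele, Selp, Icam1, Emcn and Cldn5), and promoters of Cdh5, Pecam1, Plvap, Gpihbp1 and Vcam1 were not analysed here. The lines below give the 250 bases before the annotated start in GRCm38.p6, 5′ to 3′ on the plus strand, for Sele (chr1:164047984-164048233), Selp (chr1:164115014-164115263) and Icam1 (chr9:21015690-21015939). Capitals mark matches on either strand to GGNNNTTCC, a pattern of the NF-kB type that was chosen after the values were seen.
Sele: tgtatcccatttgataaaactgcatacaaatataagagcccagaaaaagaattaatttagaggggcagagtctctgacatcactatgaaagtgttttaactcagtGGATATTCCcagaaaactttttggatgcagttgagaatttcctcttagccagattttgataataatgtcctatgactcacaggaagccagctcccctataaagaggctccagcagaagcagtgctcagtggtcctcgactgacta
Selp: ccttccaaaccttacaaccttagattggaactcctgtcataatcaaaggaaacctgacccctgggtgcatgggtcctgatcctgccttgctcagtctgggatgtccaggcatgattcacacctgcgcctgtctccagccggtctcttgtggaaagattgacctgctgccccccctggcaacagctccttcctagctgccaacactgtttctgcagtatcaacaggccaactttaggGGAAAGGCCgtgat
Icam1: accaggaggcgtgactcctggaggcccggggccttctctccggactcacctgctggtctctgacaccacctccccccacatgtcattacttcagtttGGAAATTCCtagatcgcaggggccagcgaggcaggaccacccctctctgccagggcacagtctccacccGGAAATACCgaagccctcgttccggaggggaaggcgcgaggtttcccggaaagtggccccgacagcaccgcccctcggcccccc
The match in the Sele promoter lay 145 to 137 bases before the start, on the plus strand, upstream of a TATAAA at 49 to 44 bases. The Selp promoter had a single match at 14 to 6 bases, on the minus strand. The Icam1 promoter had a stretch that matches the pattern on both strands at 153 to 145 bases and another on the minus strand at 84 to 76 bases. The Emcn and Cldn5 promoters did not hold these letters in the window. Of all 32851 promoters of this length in the table, 15.7% held GGNNNTTCC and 12.4% held TATAAA, so that a match by itself is common, and it describes letters and not a site in use. The marked letters overlapped none of the TATAAA matches.

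Cells were put into classes from marker genes, and none of the 10 genes was among the markers. ECs were cells in which the 12 EC markers (Kdr, Flt1, Tie1, Egfl7 and others) led the 12 other lists. The rule gave 46 ECs after GCV, 124 in its Pdgfrb-TK/PBS control, 65 after D-CAN and 340 for WT/PBS. All 12 EC markers were detected in the ECs of every library, with a summed level of 5216 to 7167 CPM. Markers of KPC cells were also found in the ECs, at 595 CPM after GCV, 2010 CPM in its Pdgfrb-TK/PBS control, 1590 CPM after D-CAN and 1042 CPM for WT/PBS, against 6802 to 8929 CPM in KPC cells themselves. Many ECs held 3 or more markers of a second class other than lymphatic ECs. Without them 21 of 46, 82 of 124, 47 of 65 and 176 of 340 ECs remained, in that order. The 10 genes were more often detected together in ECs than in KPC cells, without having been used to find ECs. At least 3 of the 10 were detected in 87.0% to 90.8% of ECs and in 0.730% to 3.14% of KPC cells, whose median depth was higher. The share was 73.5% in lymphatic ECs of D-CAN, 81.5% in those of WT/PBS and 7.54% in WT/PBS CAFs.

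The genes fell into groups by where their UMIs came from. Over the 4 libraries, ECs gave 83.5% of the 2883 Gpihbp1 UMIs, 76.6% of the 4875 Plvap UMIs, 76.4% of the 4578 Emcn UMIs and 75.7% of the 3923 Cdh5 UMIs, although they were 0.375% to 2.92% of the cells. Cldn5 was shared between ECs, with 53.0% of 1791 UMIs, and lymphatic ECs, with 33.4%. The lymphatic share was 5.68% after GCV and 4.91% in its Pdgfrb-TK/PBS control, but 61.4% after D-CAN and 34.0% for WT/PBS. Pecam1, which leukocytes and platelets also carry, had 47.7% of its 7259 UMIs in ECs, 16.2% in KPC cells and 12.6% in macrophages and monocytes. Sele and Selp had 52.0% of 687 and 51.2% of 2178 UMIs in ECs. These pooled shares of Pecam1, Sele and Selp rest on WT/PBS, where ECs gave 67.7%, 57.0% and 65.4%. After GCV the EC shares were 18.8%, 13.3% and 0.862%, and KPC cells gave 33.3%, 50% and 50%. In the Pdgfrb-TK/PBS control ECs gave 55.2% of Pecam1, 27.9% of Selp and none of 14 Sele UMIs, and after D-CAN 34.6%, 36.4% and 29.2% of Pecam1, Selp and Sele. By contrast, ECs gave 6.69% of the 16397 Icam1 UMIs and 0.492% of the 87197 Vcam1 UMIs. KPC cells held 41.7% of Icam1 and 77.3% of Vcam1, and CAFs held 24.7% and 11.4%. The CAF shares also rest on WT/PBS, where CAFs held 39.9% of Icam1, above the 25.1% of KPC cells, and 28.3% of Vcam1. In the other libraries CAFs held 5.64% to 15.6% of Icam1 and 2.13% to 5.24% of Vcam1. The shares above are not scaled to the UMIs of all genes in a class. KPC cells held 99654420 of 127722502 UMIs in Pdgfrb-TK/GCV and 104440536 of 155382616 in WT/PBS, and ECs held 274168 and 2575506 in these libraries. Scaled to class UMIs, KPC Icam1 was at 4.68% to 96.2% of the EC level of the same library, and KPC Vcam1 at 126% to 314%.

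**Figure D1:**
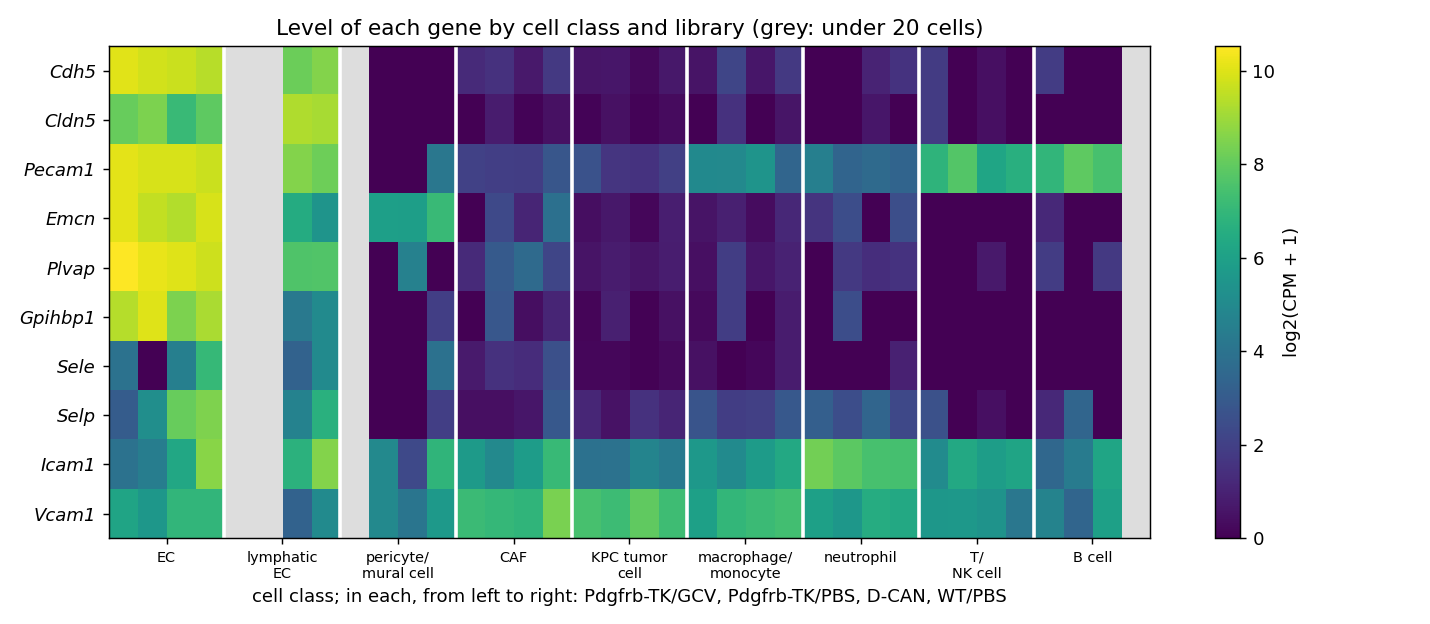
Level of each of the 10 genes by cell class and library, in log2 of CPM plus 1, from dark (0) to yellow (high), with classes under 20 cells in grey. Rows are genes and columns are the libraries of each class. Cdh5, Emcn, Plvap and Gpihbp1 are highest in the EC columns, Cldn5 also in lymphatic ECs. Icam1 and Vcam1 also spread over CAFs, macrophages, neutrophils and KPC cells, with Icam1 highest in the ECs and lymphatic ECs of WT/PBS.

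**Figure D2:**
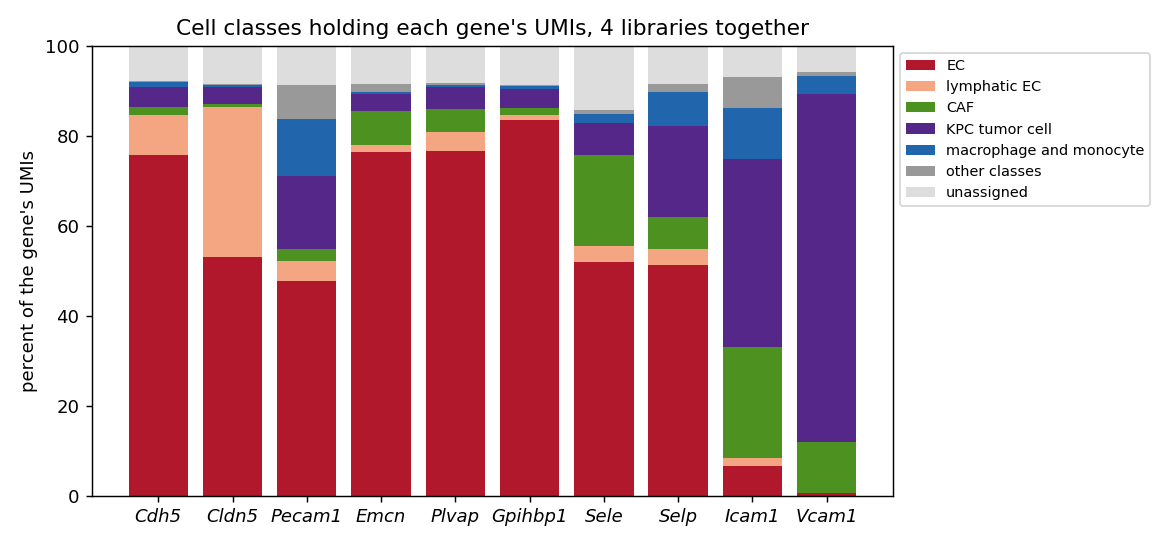
Share of each gene's UMIs, in percent (bars add up to 100), that came from each cell class, over the 4 libraries together. ECs supplied 83.5% of Gpihbp1 UMIs but 0.492% of Vcam1 UMIs, most of which came from KPC cells. Shares are not scaled to the UMIs of all genes in a class, and KPC cells held most of those.

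The share of ECs differed between conditions, which bears on every sum over a whole tumor. ECs were 0.375% (0.274–0.499) of cells after GCV and 1.18% (0.986–1.41) in its control, a 3.16-fold lower share. They were 0.639% (0.493–0.813) after D-CAN and 2.92% (2.63–3.25) in its control, a 4.58-fold lower share. Summed over all cells, Emcn was 2.81 CPM after GCV against 5.67 CPM, and 4.16 CPM after D-CAN against 20.6 CPM. In such sums fewer ECs and less RNA per EC cannot be told apart. The all-cell ratio of Gpihbp1 was 0.210 for GCV and 0.182 for D-CAN, that of Cdh5 0.487 and 0.386, and that of Plvap 0.481 and 0.489. Vcam1, which came mostly from KPC cells, had all-cell ratios of 1.09 and 1.23. Selp went the other way under GCV, at 1.82 against 0.726 CPM over all cells, a ratio of 2.50 (1.88–3.37). In ECs it had 2 UMIs against 17, whereas KPC cells had 116 against 32 and macrophages and monocytes 86 against 6. Macrophages and monocytes were 2231 cells after GCV and 610 in its control. Within that class Selp was 5.69 against 2.74 CPM, and within KPC cells 1.16 against 0.431 CPM. The levels that follow are therefore given within ECs, as CPM of all EC UMIs. The 3′ counts have no gene length in them, so levels on this scale are compared between libraries and not between genes.

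Cdh5, which encodes VE-cadherin of the adherens junction (chromosome 8, 104101625 to 104144511, plus strand, GRCm38), was 1065 CPM (946–1194) after GCV, 888 CPM (805–977) in its Pdgfrb-TK/PBS control, 831 CPM (762–906) after D-CAN and 673 CPM (642–706) for WT/PBS. The treated library of each model was the higher, at ratios of 1.20 (1.03–1.40) and 1.24 (1.12–1.36). The GCV ratio was below 1 when each EC weighed the same or when cells were thinned to 2000 UMIs. Thinning left out ECs with fewer UMIs and kept 37 of 46, 78 of 124, 58 of 65 and 291 of 340. Depth and the cells left out cannot be told apart there. The D-CAN ratio was below 1 against the Pdgfrb-TK/PBS control. Pecam1, an adhesion molecule of EC borders and of leukocytes (chromosome 11, 106654217 to 106750628, minus strand), had levels of 1091, 936, 958 and 821 CPM in the same order. Its ratios were 1.16 (1.003–1.35) for GCV and 1.17 (1.06–1.28) for D-CAN. The GCV ratio of Pecam1 was below 1 with thinned cells, with cells weighing the same and without second-class cells. Pecam1 was detected in 93.5%, 87.9%, 96.9% and 89.4% of ECs. These junction genes thus lay within 1.3-fold of control in both models.

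Cldn5, the claudin of endothelial tight junctions (chromosome 16, 18776847 to 18778262, plus strand), was 266 CPM (209–335) after GCV and 353 CPM (301–411) in its control. It was 141 CPM (113–174) after D-CAN and 241 CPM (222–260) in its control. The treated library was lower in both models, at ratios of 0.754 (0.565–0.999) and 0.587 (0.464–0.734), and D-CAN was the lowest of the 4 libraries. Under GCV the direction turned against WT/PBS (log2 ratio 0.14) and among ECs without a Hspa1a UMI (0.21). The D-CAN ratio for Cldn5 depended on which vessels were counted. With lymphatic ECs added, or with ECs taken from clusters, its log2 ratio moved from -0.77 to 0.00 and 0.10. In lymphatic ECs alone Cldn5 was 624 CPM after D-CAN and 573 CPM for WT/PBS, a ratio of 1.09 (0.915–1.29), and D-CAN had 34 lymphatic ECs against 65 ECs where WT/PBS had 65 against 340.

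Emcn, the sialomucin of capillary and venous ECs (chromosome 3, 137341067 to 137432185, plus strand), was 1080 CPM (960–1210) after GCV, 763 CPM (686–846) in its Pdgfrb-TK/PBS control, 641 CPM (580–707) after D-CAN and 946 CPM (909–985) for WT/PBS. The models went opposite ways in ECs. Emcn was 1.42-fold (1.21–1.65) the control under GCV and 0.678-fold (0.608–0.753) under D-CAN. It was detected in 84.8%, 71.8%, 86.2% and 85.6% of all ECs. Of the ECs with at least 2000 UMIs, thinned to that depth, it was detected in 83.8%, 75.6%, 67.2% and 74.9%. With that thinning the D-CAN log2 ratio of Emcn was 0.07. The GCV log2 ratio stayed above 0 under every alternative run, but fell as low as 0.02, with a highest value of 0.68. Outside the endothelium, pericytes held 4 Emcn UMIs in Pdgfrb-TK/PBS, 15 after D-CAN and 49 for WT/PBS. CAFs held 11, 14 and 321 in these libraries, and KPC cells 43, 13 and 89. In these pericytes Emcn stood at 7.91% to 14.6% of its EC level, and the summed EC markers at 9.31% to 10.7%. The part of EC RNA in these counts was not tested.

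Plvap and Gpihbp1 mark exchange in capillaries and differed from each other. Plvap, of the diaphragms of fenestrated and caveolar endothelium (chromosome 8, 71497765 to 71511752, minus strand), was 1474, 1143, 1022 and 833 CPM in ECs, in the order of libraries used for Cdh5. It was higher in the treated library of each model, at ratios of 1.29 (1.13–1.47) and 1.23 (1.12–1.34). The direction turned when cells were thinned in the GCV comparison (log2 ratio -0.04) and with the other PBS library in the D-CAN comparison (-0.16). Gpihbp1, the capillary anchor of lipoprotein lipase (chromosome 15, 75596628 to 75599481, plus strand), was 657 CPM (564–760), 1025 CPM (936–1120), 352 CPM (307–402) and 591 CPM (561–621). It was lower in both treated libraries, at 0.641 (0.537–0.762) for GCV and 0.597 (0.516–0.687) for D-CAN. Of ECs with at least 2000 UMIs, thinned to that depth, 48.6% in Pdgfrb-TK/GCV and 76.9% in Pdgfrb-TK/PBS had a Gpihbp1 UMI. The shares were 37.9% after D-CAN and 50.5% for WT/PBS. Gpihbp1 stayed lower in D-CAN under all 13 alternatives, with log2 ratios from -1.54 to -0.34. Under GCV its direction turned only against WT/PBS as control, where the log2 ratio was 0.15.

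**Figure D3:**
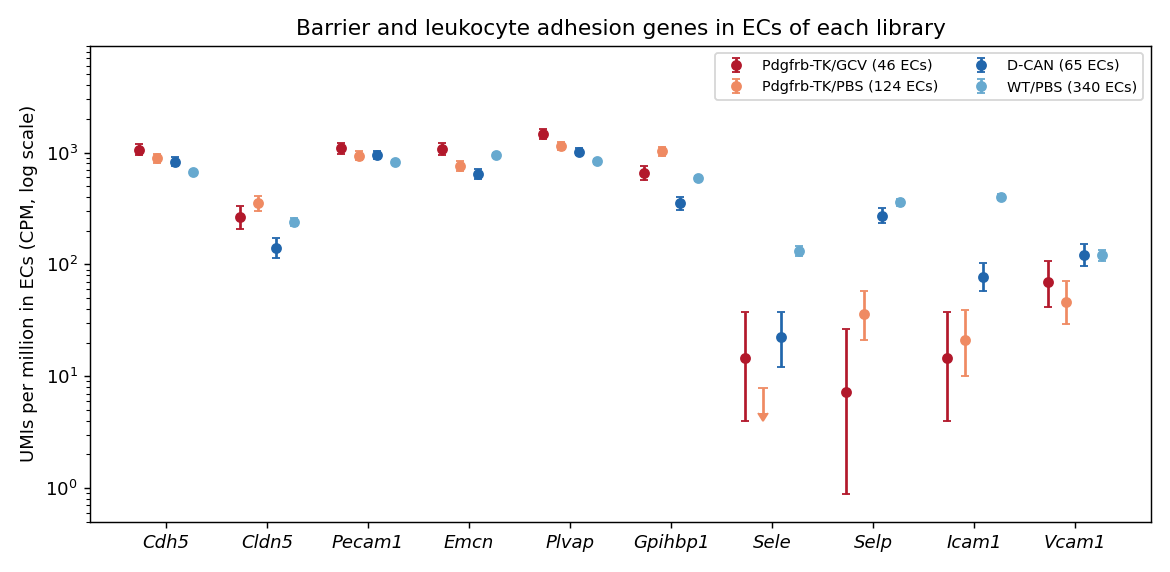
Level of each gene in ECs of the 4 libraries, in CPM on a log axis, with 95% Poisson intervals. The arrow for Sele in Pdgfrb-TK/PBS, with 0 UMIs, hangs from the upper bound of its interval. The 6 barrier genes lie at 141 CPM or more in all libraries, while Sele, Selp and Icam1 are lowest in the Pdgfrb-TK libraries and reach 132, 359 and 401 CPM in WT/PBS.

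Sele, Selp and Icam1 varied more between libraries than the barrier genes, whereas the range of Vcam1 was like that of Gpihbp1. Sele, E-selectin, which ECs make on activation (chromosome 1, 164048234 to 164057677, plus strand), had 4 UMIs after GCV, 0 in its Pdgfrb-TK/PBS control, 14 after D-CAN and 339 for WT/PBS. As levels these were 14.6 CPM (3.98–37.4), 0 with a floor of 6.34 CPM at 3 counts, 22.2 CPM (12.1–37.3) and 132 CPM (118–146). WT/PBS was above the other 3 libraries. Sele in Pdgfrb-TK/GCV, on 4 UMIs, was 2.30-fold the floor of its control, and Sele was 5.92-fold (3.48–10.95) lower in D-CAN than in WT/PBS. The floor is a set count and not an interval bound, so ratios to it carry no counting interval. D-CAN was 3.50-fold the floor of the Pdgfrb-TK/PBS control, so the direction for D-CAN turned with the control.

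Selp, P-selectin, stored in EC granules and in platelets (chromosome 1, 164115264 to 164150026, plus strand), had 2, 17, 172 and 924 UMIs in ECs, in the order of libraries used for Cdh5. The levels were 7.29 CPM (0.883–26.4), 35.9 CPM (20.9–57.5), 273 CPM (234–317) and 359 CPM (336–383). Selp was thus low in both Pdgfrb-TK libraries and high in both libraries of mice without the kinase. These pairs also differed in mitochondrial share and in Hspa1a, so host and library differences cannot be told apart. The ratio was 0.203 (0.0228–0.855) for GCV, on 2 UMIs, and 0.761 (0.643–0.896) for D-CAN. D-CAN was 7.60-fold (4.61–13.3) above Pdgfrb-TK/PBS, and its direction against WT/PBS also turned, to a log2 ratio of 0.14, when ECs with markers of a second class were left out. Platelet markers summed to 14.6, 19.0, 6.35 and 9.32 CPM in these ECs, and 7 to 9 of the 10 markers were at 0. The part of platelet RNA in Selp was not tested.

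Icam1, a ligand of leukocyte β2 integrins (chromosome 9, 21015985 to 21028817, plus strand), had 4, 10, 49 and 1034 UMIs in ECs. It was 14.6 CPM (3.98–37.4) after GCV, 21.1 CPM (10.1–38.9) in its Pdgfrb-TK/PBS control, 77.8 CPM (57.5–103) after D-CAN and 401 CPM (377–427) for WT/PBS. The 2 Pdgfrb-TK libraries did not differ beyond their counting error, with a ratio of 0.690 (0.158–2.39). D-CAN was 5.16-fold (3.88–7.03) lower than WT/PBS and 3.68-fold (1.84–8.15) higher than Pdgfrb-TK/PBS. Over all ECs, Icam1 was therefore intermediate in D-CAN, and its direction turned with the control.

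Vcam1, the ligand of α4 integrins (chromosome 3, 116109949 to 116129688, minus strand), was 69.3 CPM (41.7–108), 46.5 CPM (29.1–70.4), 122 CPM (96.4–153) and 121 CPM (108–135) in ECs, on 19, 22, 77 and 311 UMIs. The ratios were 1.49 (0.763–2.89) for GCV and 1.01 (0.778–1.30) for D-CAN, and both intervals hold 1. The D-CAN log2 ratio ran from -1.46 to 1.38 over the alternatives. In every library the EC level of Vcam1 was below that of KPC cells, at 177, 146, 250 and 152 CPM. The share of thinned ECs with a Vcam1 UMI, 8.11%, 3.85%, 15.5% and 11.7%, was also below that of thinned KPC cells, 19.9%, 22.1%, 28.9% and 17.7%. With KPC markers in the ECs at the levels given above, the part of Vcam1 in ECs that came from KPC RNA was not tested. Sele differed in this respect. It was seen in 13.7% of thinned WT/PBS ECs and in 0.0594% of thinned KPC cells of that library.

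The 10 genes were then read against all genes measured in ECs. Of 5858 genes with at least 20 UMIs over both EC libraries, 11% differed by 2-fold or more between Pdgfrb-TK/GCV and Pdgfrb-TK/PBS, with 4.76% higher and 6.28% lower, and of the 7 of the 10 genes that reached this minimum none did. Sele, Selp and Icam1 were below the minimum there. The median log2 ratio over all 10 genes was 0.24 on a scale with 1 CPM added, against 0.00 over all genes tested. Between D-CAN and WT/PBS, 12.8% of 9593 genes were 2-fold or more higher and 6.08% were 2-fold or more lower, 18.9% in all. All 10 genes reached the minimum, and 2 of them, Sele and Icam1, were past 2-fold, both lower. The median log2 ratio of the 10 was -0.48, against 0.14 over all genes. Relative to that shift of all genes, 927 genes were past 2-fold higher and 791 lower, in place of 1231 and 583, and the 10 genes had a median of -0.62 with Cdh5, Pecam1 and Plvap still above 0. Between the 2 PBS libraries, 8.37% of 9443 genes were 2-fold or more higher in WT/PBS and 11.1% lower (19.5% in all), and so were 4 of the 10 genes, Sele, Selp, Icam1 and Vcam1, at 2.6-fold (1.69–4.21) for Vcam1 and 19.0-fold (10.3–39.7) for Icam1. The controls thus differed in the 4 adhesion genes by more than treated and control did in either model.

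**Figure D4:**
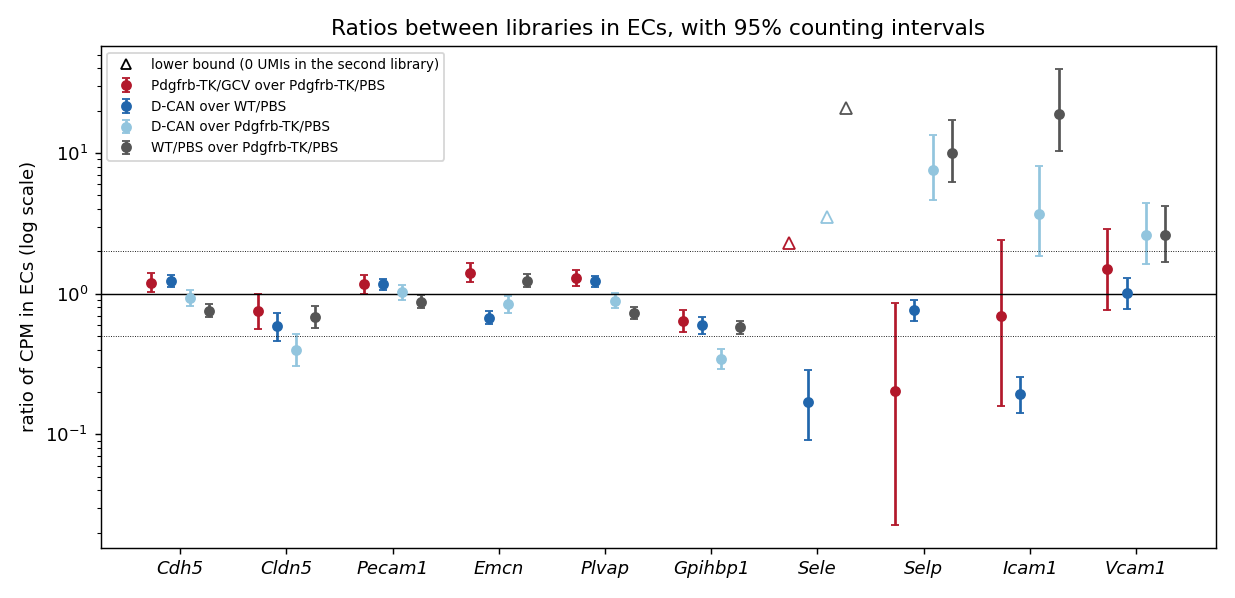
Ratio of each gene in ECs for GCV against Pdgfrb-TK/PBS, D-CAN against either PBS library, and between the PBS libraries (WT/PBS over Pdgfrb-TK/PBS), on a log axis with 95% counting intervals. Open triangles are ratios to the floor of a library without UMIs of the gene, and they are not interval bounds. Dotted lines mark 2-fold. Of the barrier genes, Cldn5 and Gpihbp1 pass 2-fold for D-CAN against Pdgfrb-TK/PBS (ratios of 0.400 and 0.344) and none does in the other comparisons, while Sele, Selp, Icam1 and Vcam1 lie above 1 between the PBS libraries, and Sele and Icam1 are 5.92-fold and 5.16-fold lower in D-CAN.

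The heat shock gene Hspa1a was higher in the ECs of D-CAN and WT/PBS, which also had more Selp and Icam1. Hspa1a, an inducible chaperone gene, was 139 CPM after GCV, 19.0 CPM in its Pdgfrb-TK/PBS control, 1033 CPM after D-CAN and 1993 CPM for WT/PBS. The sum of 6 immediate early genes was 693, 501, 2222 and 1582 CPM, highest in D-CAN. ECs were then split by whether they had a Hspa1a UMI, a split chosen after the values were seen. In WT/PBS, 97 ECs had none (median 3135 UMIs) and 243 had at least 1 (median 5419 UMIs). In D-CAN these were 24 and 41 ECs, with medians of 4691 and 7810 UMIs. The WT/PBS ECs without a Hspa1a UMI had 275 CPM Icam1 (231–326) and 427 CPM Selp (370–489), against 431 and 343 CPM in those with it. Their Sele was 35.2 CPM (20.5–56.4), against 154 CPM (138–172). In D-CAN the same split gave 13.5 and 97.5 CPM for Icam1, 115 and 322 CPM for Selp, and 6.74 and 27.0 CPM for Sele.

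Among ECs with no Hspa1a UMI, Icam1 was lower in D-CAN than in WT/PBS, on 2 against 133 UMIs, a ratio of 0.0490 (0.00587–0.180). Selp was also lower there, on 17 against 206 UMIs, a ratio of 0.269 (0.154–0.441), where over all ECs it was 0.761. For Sele, with 1 against 17 UMIs, the ratio of 0.192 had an interval of 0.00458 to 1.22, which holds 1. In Pdgfrb-TK/PBS, 117 ECs had no Hspa1a UMI, with Icam1 at 22.3 CPM (10.7–41.0) on 10 UMIs, against 13.5 CPM (1.63–48.7) in D-CAN. Icam1 in D-CAN was thus not above that control among these ECs, where over all ECs the ratio was 3.68. Vcam1 was 42.3 CPM in that control and 40.4 CPM in D-CAN, but Selp stayed higher in D-CAN, at 115 against 37.9 CPM. ECs without a Hspa1a UMI were shallower than the rest in D-CAN and WT/PBS. The part of the heat shock genes in the differences was not tested.

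**Figure D5:**
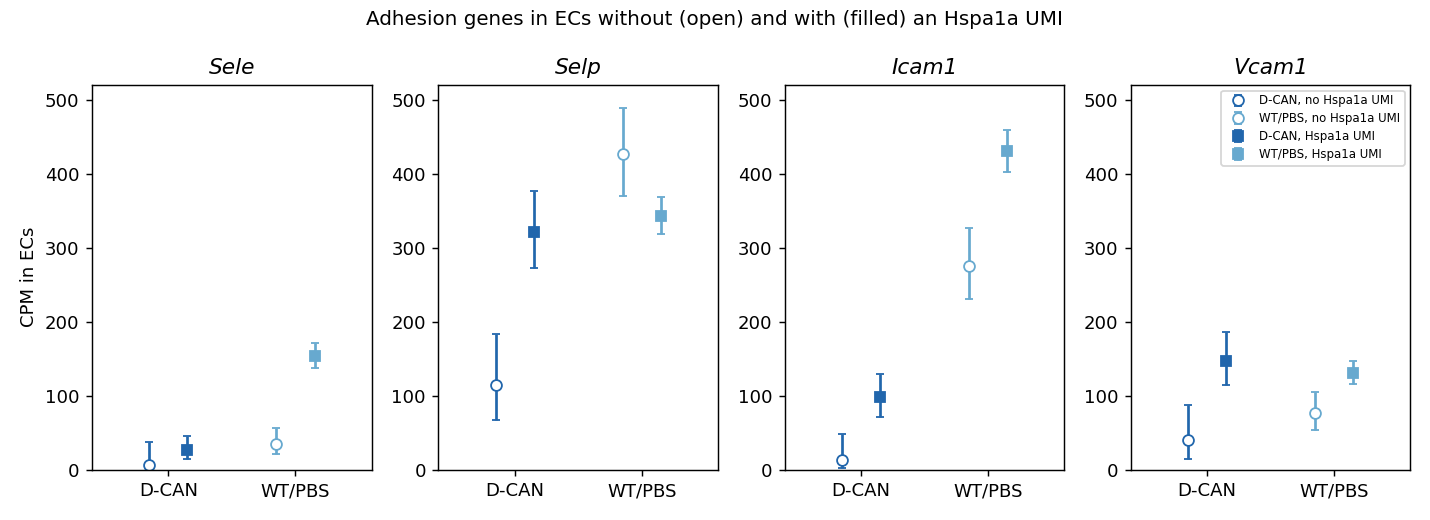
Levels of Sele, Selp, Icam1 and Vcam1, in CPM with 95% Poisson intervals, in ECs of D-CAN and WT/PBS with and without a Hspa1a UMI. Icam1 in ECs without a Hspa1a UMI was 275 CPM for WT/PBS, on 133 UMIs in 97 ECs, and 13.5 CPM after D-CAN, on 2 UMIs in 24 ECs.

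Within a library the adhesion genes were found in overlapping sets of ECs. Of the 340 WT/PBS ECs, 66 had a Sele UMI, and of these 74.2% had a Selp UMI, against 19.3% of the other ECs. Icam1 was seen in 74.2% of the Sele-positive ECs and 23.0% of the rest, and Vcam1 in 45.5% and 15.3%. Sele-positive ECs were deeper, with a median of 8338 UMIs against 4137.5. In detection, Gpihbp1 went with Cldn5 and against Selp. Of the 214 Gpihbp1-positive ECs, 48.6% had a Cldn5 UMI, against 18.3% of the rest, but 24.3% had a Selp UMI, against 39.7% of the rest, although the Gpihbp1-positive cells were the deeper ones (a median of 6347.5 against 2715 UMIs). The part of depth in the overlap with Cldn5 was not tested, here or in D-CAN. In the 65 D-CAN ECs the order was the same. Of 35 Gpihbp1-positive ECs, 42.9% had Cldn5 and 8.57% had Selp, against 10.0% and 40.0% of the rest, and of 15 Selp-positive ECs 66.7% had Icam1, against 12%. The Pdgfrb-TK/PBS ECs held 9 Selp-positive and 7 Icam1-positive cells, too few for such a description.

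Genes with the pattern most like each of the 10 were read from 29 library and class sums of at least 50 cells, among 16137 genes, as a description. The sums share libraries and depth, and 3 of them are ECs. Myct1, Sox18 and Kdr, named below, are EC markers, so the class rule itself favors them in EC sums. Cdh5 was most like Robo4 and Myct1 (both r = 0.978), Plvap like Sox18 (r = 0.974), Gpihbp1 like Grrp1 (r = 0.961), Emcn like Kdr (r = 0.932) and Pecam1 like Rapgef1 (r = 0.920). Cldn5 and Cdh5 were each among the other's nearest genes (r = 0.973). For the adhesion genes the likeness was looser. Selp was most like Rasip1 (r = 0.899), Sele like Sox11 (r = 0.891), Vcam1 like Pdgfc (r = 0.815), and Icam1 like Fas (r = 0.807) and Nfkbia (r = 0.789).

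Other genes of the same functions were read from gene lists, with the share of all genes past 2-fold in each comparison as given above. Of 23 further junction and barrier genes, 19 were tested for GCV, of which 2 were higher and none lower, with a median log2 ratio of 0.16. Robo4, a receptor that stabilizes vessels, was 2.43-fold (1.82–3.26) higher and Ptprb, the phosphatase that acts on VE-cadherin and Tie2, had a ratio of 1.01. For D-CAN 21 were tested, 3 higher and 1 lower, with a median of 0.40. S1pr1, the sphingosine-1-phosphate receptor that tightens junctions, was the lower, at 0.482 (0.399–0.578), and Ptprb was at 1.26 (1.13–1.39). Against the Pdgfrb-TK/PBS control, 1 of 20 was higher and none lower, where 7.19% and 4.35% of all genes were, S1pr1 was at 0.757 (0.590–0.971) and Ptprb turned to 0.634 (0.562–0.716).

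Beside Gpihbp1, 11 genes of capillary exchange and lipid uptake were tested for GCV, with 1 lower and a median of -0.18. That gene was Aqp1, a water channel, at 0.477 (0.352–0.638), while the fatty acid binding protein gene Fabp4 was at 0.882 and the fatty acid receptor gene Cd36 at 0.726. With WT/PBS as control, 3 of 14 were higher for GCV and 4 lower, where 12% and 13.3% of all genes were, with a median of 0.44. There Fabp4 turned to 1.66 (1.55–1.77) and Cd36 to 1.22 (0.996–1.49), while Aqp1 stayed lower at 0.634 (0.480–0.824). For D-CAN 14 were tested, 3 higher and 3 lower, with a median of -0.22. Cd36 was 3.46-fold lower, at 0.289 (0.220–0.374), and Fabp4 was at 0.763, on the same side as Gpihbp1. Lpl, whose protein GPIHBP1 carries, had 1 UMI against 56. Aqp1 was at 1.83 (1.62–2.06) and Cavin1, a caveolar coat gene, was 2.48-fold (2.07–2.96) higher. Against the Pdgfrb-TK/PBS control Cd36 and Fabp4 were also lower, at 0.172 (0.128–0.227) and 0.406 (0.377–0.436), Aqp1 and Cavin1 were also higher, at 1.38 and 1.62, and Lpl had 1 UMI in either library.

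Among other adhesion and venule genes, 11 were tested for GCV, none higher and 2 lower (Alcam and Lrg1), with a median of -0.19. For D-CAN 12 were tested, with 1 higher and 1 lower and a median of 0.14. Ackr1, the venular chemokine carrier, was 3.82-fold lower at 0.262 (0.147–0.433), in the direction of Sele and Icam1, whereas Vwf, stored with P-selectin, was 2.43-fold (1.98–2.97) higher. Both rest on WT/PBS as control. Against Pdgfrb-TK/PBS, Ackr1 had 16 against 12 UMIs, at 25.4 CPM in each, and Vwf turned to 0.678 (0.543–0.846). Of the 19 genes on the NF-kB and cytokine list, 18 were tested for D-CAN, of which 7 were lower and none higher, with a median of -0.59. Nfkbia, the NF-kB inhibitor that NF-kB itself induces, was 2.46-fold lower, and Ccl2, a monocyte chemoattractant, had 5 UMIs against 1129. Irf1 was higher at 1.90 (1.44–2.49). This direction turned with the control: against Pdgfrb-TK/PBS 6 of 12 were higher and 1 lower, with a median of 0.88, and Nfkbia was 2.06-fold (1.56–2.75) higher, while Irf1 was again higher at 3.004-fold (1.82–5.18). Between the PBS libraries 10 of 18 were higher in WT/PBS and none lower, with a median of 1.36, so that these genes, like Sele and Icam1, set WT/PBS apart. For GCV 10 were tested, 1 higher and 2 lower, with a median of -0.25. With WT/PBS as control, 10 of 18 were lower for GCV and none higher, with a median of -1.42.

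Vessel subtypes were also read. Of 7 tip cell genes, which mark sprouting ECs, 4 were higher for GCV and none lower, with a median of 2.10. Esm1 was 5.64-fold (4.55–7.02) and Apln 5.22-fold (4.07–6.75) higher, while the basement membrane gene Col4a1 was at 0.996. With WT/PBS as control, 3 of the 7 were higher for GCV and none lower, with a median of 0.66. For D-CAN 2 of the 7, Apln and Esm1, were higher, at 28.4-fold (17.9–47.3) and 3.07-fold (2.59–3.64), with a median of 0.26. The Apln ratio rests on a low WT/PBS level. Apln was 232 CPM after D-CAN, 8.15 CPM for WT/PBS and 179.6 CPM in Pdgfrb-TK/PBS, against which the D-CAN ratio was 1.29 (0.981–1.71) for Apln and 1.602 (1.28–2.02) for Esm1. Of 7 arterial genes, 4 were tested for GCV with 2 lower (median -0.81), and 6 for D-CAN with 1 higher (median 0.17).

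Outside ECs, lymphatic ECs carried Cldn5, Cdh5 and Pecam1, and T, NK and B cells carried Pecam1 (72.4 to 207 CPM in T and NK cells). Icam1 and Vcam1 were spread over more classes. In CAFs Icam1 was 51.6 CPM after GCV, 30.2 CPM in its Pdgfrb-TK/PBS control, 54.8 CPM after D-CAN and 136 CPM for WT/PBS. The ratios were 1.71 (1.30–2.26) for GCV and 0.403 (0.370–0.438) for D-CAN, where 6.47% of all CAF genes tested were 2-fold or more lower. CAF Vcam1 was 144, 128, 117 and 337 CPM, with ratios of 1.13 (0.977–1.30) and 0.346 (0.327–0.366). WT/PBS was the high library for both genes in CAFs, at 4.51-fold (3.62–5.67) Pdgfrb-TK/PBS for Icam1 and 2.64-fold (2.37–2.94) for Vcam1. Against Pdgfrb-TK/PBS, D-CAN CAFs had more Icam1, at 1.81 (1.44–2.31), and Vcam1 at 0.913 (0.812–1.03). The heat shock genes were also highest in WT/PBS CAFs, and their part in these differences was not tested.

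In lymphatic ECs Icam1 and Selp were also lower in D-CAN than in WT/PBS. Icam1 was 109 CPM in 34 lymphatic ECs of D-CAN and 383 CPM in 65 of WT/PBS, a ratio of 0.283 (0.194–0.403), and Selp was 24.1 and 103 CPM. The Pdgfrb-TK libraries held 2 and 6 lymphatic ECs. KPC cells differed from this. Their Icam1 was 14.0, 14.7, 25.7 and 18.8 CPM, with D-CAN at 1.37-fold (1.29–1.46) WT/PBS, and their Vcam1 was 1.65-fold (1.61–1.68) higher in D-CAN and 1.21-fold (1.18–1.24) higher in Pdgfrb-TK/GCV than in the PBS libraries. Icam1 lower in D-CAN than in WT/PBS was thus seen in ECs, lymphatic ECs, CAFs, and macrophages and monocytes, whereas KPC cells had more. Against Pdgfrb-TK/PBS, D-CAN had more Icam1 in ECs (ratio 3.68), CAFs (1.81), macrophages and monocytes (1.70) and KPC cells (1.75). Neutrophils (0.740) and T and NK cells (0.717, on 5 control UMIs) had less there. The contrast with KPC cells thus rests on WT/PBS as control.

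In leukocytes, neutrophil Icam1 was 312, 234, 173 and 172 CPM, with ratios of 1.33 (1.03–1.73) for GCV and 1.01 (0.836–1.22) for D-CAN. Macrophage Icam1 was 48.0, 32.0, 54.4 and 81.8 CPM, with D-CAN at 0.666 (0.586–0.756) of WT/PBS and 1.70-fold (1.32–2.23) Pdgfrb-TK/PBS. Macrophage Vcam1 was 61.5 CPM after GCV and 124 CPM in its control, a ratio of 0.496 (0.433–0.570), and 0.881 (0.812–0.957) for D-CAN. Pecam1 in macrophages and monocytes was 42.1 CPM after D-CAN and 9.94 CPM for WT/PBS, a 4.23-fold (3.30–5.48) higher level, where 12.7% of the genes tested in that class were 2-fold or more higher. Against the 29.7 CPM of Pdgfrb-TK/PBS it was 1.42-fold (1.08–1.88) higher.

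The leukocyte partners of the selectins and adhesion molecules were read in the cells that carry them, from a list of 12 genes. In macrophages and monocytes none of the 12 was past 2-fold for GCV, where 8.96% of all genes were (median 0.13). For D-CAN 6 were higher and none lower, where 12.7% and 4.21% of all genes were, with a median of 0.98 against 0.23 over all genes tested there. Itgam and Itgal, the integrin chains that bind ICAM-1, were 2.37-fold (2.19–2.57) and 4.46-fold (3.65–5.49) higher, and Cd44 was at 0.841. Against Pdgfrb-TK/PBS 2 of the 12 were higher, where 7.36% of all genes were, Itgal was 2.36-fold (1.81–3.12) higher, and Itgam and Cd44 turned, to 0.673 (0.621–0.729) and 1.19 (1.11–1.28). In neutrophils 10 were tested for D-CAN, with 2 higher and 1 lower, where 16.1% and 5.29% of all genes were. Itga4, the chain that binds VCAM-1, was 9.90-fold (5.41–20.2) higher in D-CAN neutrophils than in those of WT/PBS and 4.47-fold (2.38–9.47) higher than in those of Pdgfrb-TK/PBS, which had 11 and 10 UMIs. In T and NK cells, with 41 and 54 cells in the PBS libraries, 1 of 9 was higher and 3 lower for GCV, where 13.8% and 10.9% of all genes were, and 5 of 10 were higher for D-CAN, where 25.4% were. Against Pdgfrb-TK/PBS 2 of 10 were higher and 2 lower for D-CAN, where 29.2% and 12% of all genes were.

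Pdgfrb, whose promoter drives the kinase, was at or near 0 in the ECs, with 2, 0, 2 and 7 UMIs in that order. In CAFs it was 56.7, 225, 239 and 147 CPM.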

How the data were processed

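Single-cell suspensions of pooled tumors were profiled with 10x 3′ chemistry, 1 library per treatment. The authors deposited raw UMI counts per gene and cell. Per the labels and the file headers these came from Cell Ranger (header version 7.0.0) with STAR 2.6 on mm10. For the preparation the study's methods were followed, since the protocol in the labels is for nuclei of a different tissue. Each library listed the same 32285 genes, and 5 extra features of the C57BL/6 libraries were left out.

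Cells with at least 200 detected genes were kept. Of 13 marker lists, a cell took the class whose markers it held in the largest share, given at least 3 markers and 1.25 times the share of the next list. This lead was not asked between the EC and lymphatic EC lists, where the larger share decided. The remaining cells stayed unassigned. No doublet caller was run, and ECs with 3 or more markers of a second class were left out as an alternative. UMIs were summed per library and class and scaled to a total of 1e+06 (CPM). Intervals at 95% were Poisson for levels, Clopper-Pearson for shares and exact conditional binomial for ratios. Log2 ratios had 1 CPM added. A gene was called past a threshold at 2-fold with at least 20 UMIs over both libraries. A count of 0 was given a floor of 3 counts. The ratio and call steps were tested on simulated data.

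Named were the 10 genes, and of each list the genes with the most UMIs or the largest ratios with at least 20 UMIs. For each of the 10, the genes of highest Pearson correlation over class sums were also named. The genes and lists were chosen with earlier results of these data known. The heat shock and immediate early genes, the Hspa1a split and the promoter motifs were chosen after the values were seen. Promoters came from RefSeq and gene positions from the GENCODE annotation of GRCm38. Some genes that these rules would name are not reported here. With 1 library per condition no test was made. Clustering for the alternative gate used scanpy 1.11.5 and leidenalg 0.10.2, and sums and intervals used Python 3.11.15, numpy 2.4.6, scipy 1.17.1 and pandas 2.3.3. Alternatives covered the gene minimum, mitochondrial share, gate, clusters, second-class cells, control library, cell weighting, scaling, pseudocount, thinning and UMI minimum.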

Additional observations from a re-analysis of the deposited data

How the results depend on the processing

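Precision rested on 46 to 340 ECs per library and on 1 library per condition, so the intervals cover counting error only. No paired analysis was possible because each condition is 1 library and the labels give no replicate numbers, and leaving out a library would leave no comparison.

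The share of ECs stayed lower in both treated libraries under every alternative run. The GCV ratio of 0.316 became 0.218 without cells holding markers of a second class and 0.128 against WT/PBS. The D-CAN ratio of 0.218 became 0.319 with ECs from clusters, 0.305 without cells holding markers of a second class and 0.539 against Pdgfrb-TK/PBS. The count of genes past 2-fold in ECs for GCV, 647, became 2321 against WT/PBS, 426 with 10 CPM added and 5301 with no minimum above 1 UMI. For D-CAN the count of 1814 became 841, 822 and 4518 under the same changes, the first of these against Pdgfrb-TK/PBS.

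The median log2 ratio of the 10 genes for D-CAN, -0.48, became -0.28 without cells holding markers of a second class and -0.030 against Pdgfrb-TK/PBS. For GCV it lay between -0.17 with thinned cells and 0.26 without ECs holding a Hspa1a UMI, so its sign was not stable. Of single genes, Sele turned to -3.09 for GCV against WT/PBS, and Sele and Icam1 turned to 4.54 and 1.83 for D-CAN against Pdgfrb-TK/PBS. Of 130 log2 ratios of single genes over all alternatives, 16 for GCV and 17 for D-CAN changed sign. The Hspa1a split and the addition of lymphatic ECs were chosen after seeing the data. The cause of these changes was not tested.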

Other observations

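In ECs the genes furthest from control, among those with at least 100 UMIs over both libraries, were no members of the set. Among the highest for GCV were Edn1, which encodes the vasoconstrictor endothelin 1, at 11.6-fold (6.92–20.6), and Esm1, Cxcl12 and Ccn1. The lowest were Lgals4, Tff1, Tff2, Plac8 and Krt19, of which Krt19 is a KPC marker, and the summed KPC markers in ECs were 595 CPM in Pdgfrb-TK/GCV and 2010 CPM in Pdgfrb-TK/PBS. For D-CAN, Cxcl9, a chemokine that attracts T cells, had 162 UMIs against 3, and Apln was 28.4-fold (17.9–47.3) higher, at 232 against 8.15 CPM, where Pdgfrb-TK/PBS had 179.6 CPM. Ccl2 had 5 UMIs against 1129, Csf3 1 against 302 and Rsad2 2 against 461, and in Pdgfrb-TK/PBS these had 1, 0 and 9 UMIs. Between the PBS libraries Sele was among the 5 genes furthest higher in WT/PBS, with 339 UMIs against 0, beside Ccl2, Il6, Csf3 and Hspa1a.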
